A study of Zea mays with 27 samples.

Results

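INO1 is a maize gene listed as LOC542540, with the synonyms INO1 and lpa1, that encodes inositol phosphate synthase. It was measured on 27 dual-colour cDNA arrays of adult leaf RNA by 57 spots, which stand for 19 cDNAs of 3 spots each, out of 16200 spots and 5400 cDNAs in all. Its cDNAs were every cDNA to which the probe annotation gives this symbol. The gene itself was selected from its values under the LE filter in these same arrays, so the LE values below are a description with no test. The annotation is old and names 811 cDNAs of 213 genes. Single cDNAs are called here by the number of their first spot.

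Inositol phosphate synthase turns glucose 6-phosphate into inositol phosphate, which is the committed step into inositol. Plants use inositol to make phytate, which stores phosphate, and phosphatidylinositol, the membrane lipid behind inositol signalling. They also use it for galactinol and the raffinose sugars, which build up under drought and cold, and for precursors of cell wall sugars. Maize has related synthase copies, so a cDNA on a glass slide can bind RNA of more than 1 of them.

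Leaves of 4 genotypes were used, named b,pl, B,Pl, bz2 and mutator. B and Pl are regulators of anthocyanin synthesis, while the Bz2 product is a glutathione S-transferase on which anthocyanin transport to the vacuole depends. Plants of all 4 genotypes stood under plastic labelled CA, PE or LE, or in a greenhouse with 8 h of added UV-B. For b,pl and B,Pl there were also plants sampled 1 day after the PE plastic was taken off, and for b,pl also greenhouse plants without UV-B. The labels call the leaf adult but give no age of the plants. They do not say what CA, PE and LE stand for or where the filter plants stood. Nor do they say whether arrays of a group came from separate plants. Every array set a group against b,pl CA or against CA of its own genotype in the other dye, so the comparisons share these controls. The greenhouse tests against CA are thus not independent of the choice of the gene by its LE values. The labels place only the UV-B and no UV-B plants in the greenhouse, so place and UV-B cannot be told apart where these are set against CA. Leaf RNA was measured in bulk, so fewer cells of a type and less RNA per cell cannot be told apart either. Ratios hold no level, so the leaf could not be checked by the level of its markers.

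The deposited values are log2 ratios of both channels, and the numerator is not given in the sources used here. Each array was centred on its median and turned so that a group in Cy5 counts as positive and a group in Cy3 as negative. If Cy5 was the numerator, a positive signed ratio means more RNA in the first-named group; with Cy3 as the numerator it means less. On 19 arrays the first-named group was in Cy5 and on 8 in Cy3. On 4 arrays the title and the channel name disagree on the dye, namely B,Pl PE replicate 2, b,pl PE removed replicate 2 and the arrays of bz2 CA and mutator CA, and the title was followed. Over all cDNAs, the signed arrays of a dye swap correlated at 0.315 for bz2 LE, 0.146 for b,pl greenhouse UV-B and 0.085 for b,pl LE. The correlation was 0.142 for B,Pl PE removed, −0.048 for b,pl PE removed, −0.06 for B,Pl CA and −0.068 for b,pl PE. The B,Pl PE swap, which holds one of the conflicting labels, correlated at −0.393, so the direction of these B,Pl PE arrays is not settled. Among arrays of 1 orientation against b,pl CA, the lowest correlation was −0.403. It lay between b,pl greenhouse UV-B replicate 2 and replicate 1 of b,pl PE removed, so the direction of either is not settled. The UV-B array correlated at 0.361 with B,Pl PE removed replicate 1, 0.27 with B,Pl PE replicate 3 and −0.122 with b,pl PE replicate 2. For the PE removed array these were −0.213, −0.134 and 0.13. In the linear model used below, the median residual variance over all cDNAs was 0.168 as labelled. It was 0.205 with the UV-B array turned and 0.1605 with the PE removed array turned. Results with such arrays turned are given beside those as labelled.

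As labelled, INO1 was positive on the 12 arrays of LE and of the greenhouse, and on 11 of them with b,pl greenhouse UV-B replicate 2, whose direction is in doubt, turned in sign. On the 6 greenhouse arrays the mean signed log2 ratio over the cDNAs lay between 0.76 and 1.70, and 111 of 114 cDNA values were positive. With that array turned, its mean was −1.69 with 0 of 19 cDNAs positive, and 92 of the 114 values were. On the 6 LE arrays it lay between 0.52 and 1.34, also with 111 of 114 cDNA values positive. On the 11 arrays of CA and PE it ran from −1.29 to 1.17, with 3 arrays positive and 8 negative. The ranges of the CA and PE arrays and of the greenhouse arrays overlap, because the 3 CA and PE arrays with the group in Cy3 were the positive ones.

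**Figure D1:**
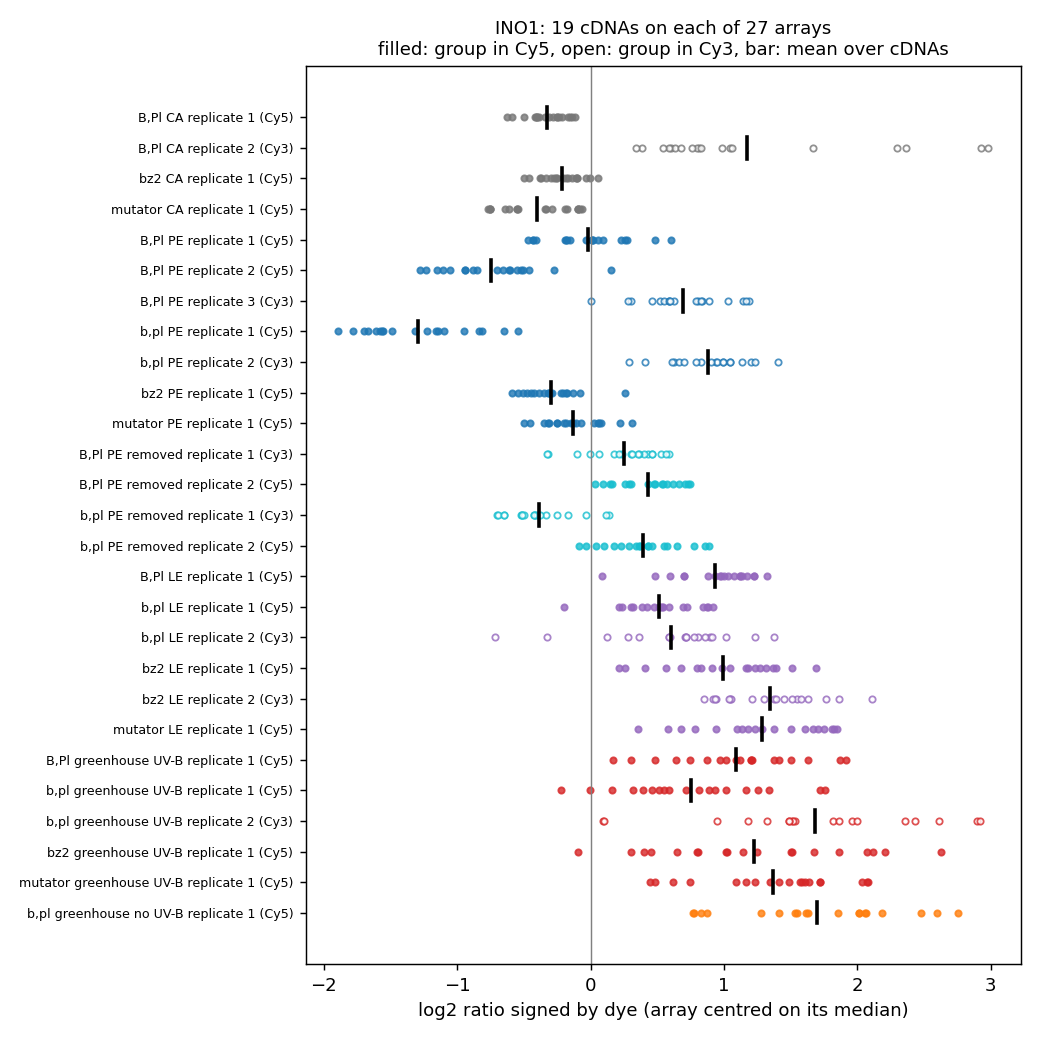
Signed log2 ratio of each INO1 cDNA (points, x axis) on each of the 27 arrays (y axis), filled where the first-named group was in Cy5 and open where it was in Cy3, with a bar at the mean over cDNAs. As labelled, the 12 LE and greenhouse arrays have means of 0.52 to 1.70 (b,pl greenhouse UV-B replicate 2 would stand at −1.69 if turned), while the arrays of CA and PE lie on either side of 0.

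The array means of INO1 in the greenhouse overlapped with those under LE. The single array of b,pl without UV-B had a mean signed log2 ratio of 1.70 (SD 0.61 over the 19 cDNAs), from 0.77 for cDNA 9208 to 2.75 for cDNA 15358. Under UV-B the arrays of b,pl had 0.76 and 1.69, that of B,Pl had 1.09, that of bz2 1.23 and that of mutator 1.37. The array without UV-B was the highest of the 6, just above b,pl UV-B replicate 2 as labelled, and b,pl UV-B replicate 1 was the lowest, below 4 of the 6 LE arrays. Set against all cDNAs of the same array, 0.853% lay above the INO1 median on the b,pl array without UV-B, and 0.872% on the mutator UV-B array. On b,pl UV-B replicate 1 this share was 11.8%, which puts INO1 less far out there.

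Greenhouse plants with UV-B were set against the CA plants of their own genotype, a comparison in which place and UV-B cannot be told apart. All arrays entered a linear model with a dye term, and each cDNA was tested with limma, both directions, with Benjamini-Hochberg adjustment over all cDNAs. In b,pl the fitted difference had a median of 1.20 over the 19 cDNAs, from −0.06 for cDNA 9208 to 2.32 for cDNA 15358, with 18 positive. The mean over the gene was 1.22 (SE 0.48, n = 2 arrays). At the adjusted threshold of 0.05, 0 of 19 cDNAs were called, as were 0.0% of all cDNAs. At an unadjusted p under 0.05 there were 14 of 19, against 13.0% of all cDNAs. The smallest p belonged to cDNA 2206, at 0.85 (SE 0.24) and a limma adjusted p of 0.194. The 14 became 5 without replicate 1, against 4.65% of all cDNAs, and 1 without replicate 2, against 10.7%. With replicate 2 turned in sign, the median was −0.43 and the count 0, against 2.2%. The residual SD of the gene mean, 0.683 as labelled, was then 0.985.

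In the other 3 genotypes, each with 1 greenhouse array, the INO1 median was of like size. It was 1.32 in B,Pl, from 0.44 for cDNA 9208 to 1.63 for cDNA 7066. In bz2 it was 1.40, from −0.09 for cDNA 685 to 2.99 for cDNA 10816, and in mutator 1.71, from 0.64 to 2.83 for the same cDNAs. Of the 57 cDNA values in these genotypes, 1 was negative, that of cDNA 685 in bz2. Past the adjusted threshold in limma there were 0 of 19 in B,Pl, where 0.0186% of all cDNAs passed, 0 of 19 in bz2, where 0.0185% did, and 0 of 19 in mutator, where 0.0% did. At an unadjusted p under 0.05 there were 0 in B,Pl against 5.09% of all cDNAs, 0 in bz2 against 1.32% and 3 in mutator against 2.18%. The B,Pl count became 6 without either array of b,pl PE removed, against 5.22% of all cDNAs, and 8 when the 3 arrays with most missing values were dropped, against 7.57%. Over the 29 alternatives, those that left out 1 array among them, the bz2 median ran from 0.82 to 2.05. The bz2 count was 0 without the dye term, against 1.21% of all cDNAs. It was 11 without centring, against 3.34%, 7 with scaled arrays, against 6.17%, and 5 with b,pl PE replicate 2 turned, against 1.54%. Dropping the 3 arrays with most missing values gave 4 in bz2, against 2.73%, and 11 in mutator, against 3.18%. The mutator count became 8 without either array of b,pl PE removed and 9 without either array of b,pl PE, against 2.2% and 2.48%, and fell to 2 when an array of b,pl UV-B was left out, against 1.95%. In B,Pl the limma adjusted p was 0.948 for all 19 cDNAs, and the smallest unadjusted p was that of cDNA 2851, at 1.51 (SE 0.70).

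The average of greenhouse UV-B against CA over the 4 genotypes, like the other averages below, was added after the values were seen. It had an INO1 median of 1.41, from 0.28 for cDNA 685 to 2.37 for cDNA 10816. All 19 cDNAs were positive, and 0.355% of all cDNAs lay above the median of the gene. The gene mean was 1.40 (SE 0.42). In limma 0 of 19 passed the adjusted threshold, against 0.0187% of all cDNAs, and 16 had an unadjusted p under 0.05, against 6.99%. The smallest p was that of cDNA 3106, at 1.36 (SE 0.33) and a limma adjusted p of 0.201. With b,pl UV-B replicate 2 turned, the median was 0.96 and 0 had an unadjusted p under 0.05, against 2.2% of all cDNAs. The F test of whether the greenhouse UV-B difference from CA varied between genotypes called 0 of 19, against 0.0187% of all cDNAs. At an unadjusted p under 0.05 there were 0 of 19, against 2.39%. A difference between genotypes was thus not detected for INO1 with these arrays.

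The single array of b,pl in the greenhouse without UV-B gave a larger fitted INO1 difference from CA than the arrays with UV-B. Its mean signed log2 ratio of 1.70 was close to the 1.69 of UV-B replicate 2 as labelled, while UV-B replicate 1 had 0.76. Against CA the median without UV-B was 2.01 (n = 1 array), from 0.85 for cDNA 9208 to 3.17 for cDNA 15358, and the gene mean was 2.02 (SE 0.70). All 19 cDNAs were positive and 0.556% of all cDNAs lay above the median. In limma 0 of 19 were called, against 0.0% of all cDNAs, while 17 had an unadjusted p under 0.05, against 7.12%. The smallest p was that of cDNA 2206, at 1.97 (SE 0.35) and a limma adjusted p of 0.226. With b,pl UV-B replicate 2 turned, which alters the dye term, the 17 became 5, against 4.88% of all cDNAs.

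UV-B against no UV-B within the greenhouse, the comparison in which both groups are labelled greenhouse, gave an INO1 median of −0.86. All 19 cDNAs were negative, from −1.37 for cDNA 15826 to −0.08 for cDNA 13819, and the gene mean was −0.80 (SE 0.85). The SE exceeds the difference. The group without UV-B was in Cy5 only, and the dye term of the gene mean, −0.32 (SE 0.17), moved it from 1.70 to 2.02. The b,pl UV-B group was in both dyes and was fitted at 1.22. In limma 0 of 19 passed the adjusted threshold, against 0.0% of all cDNAs, and 1 of 19 had an unadjusted p under 0.05, against 6.03%. That was cDNA 2206, at −1.12 (SE 0.43) and a limma adjusted p of 0.769. The median was −2.33 with b,pl UV-B replicate 2 turned in sign, with 6 of 19 at an unadjusted p under 0.05, against 4.04% of all cDNAs. Over the 29 alternatives, those without either of the b,pl UV-B arrays among them, the median ran from −2.33 to −0.45.

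**Figure D2:**
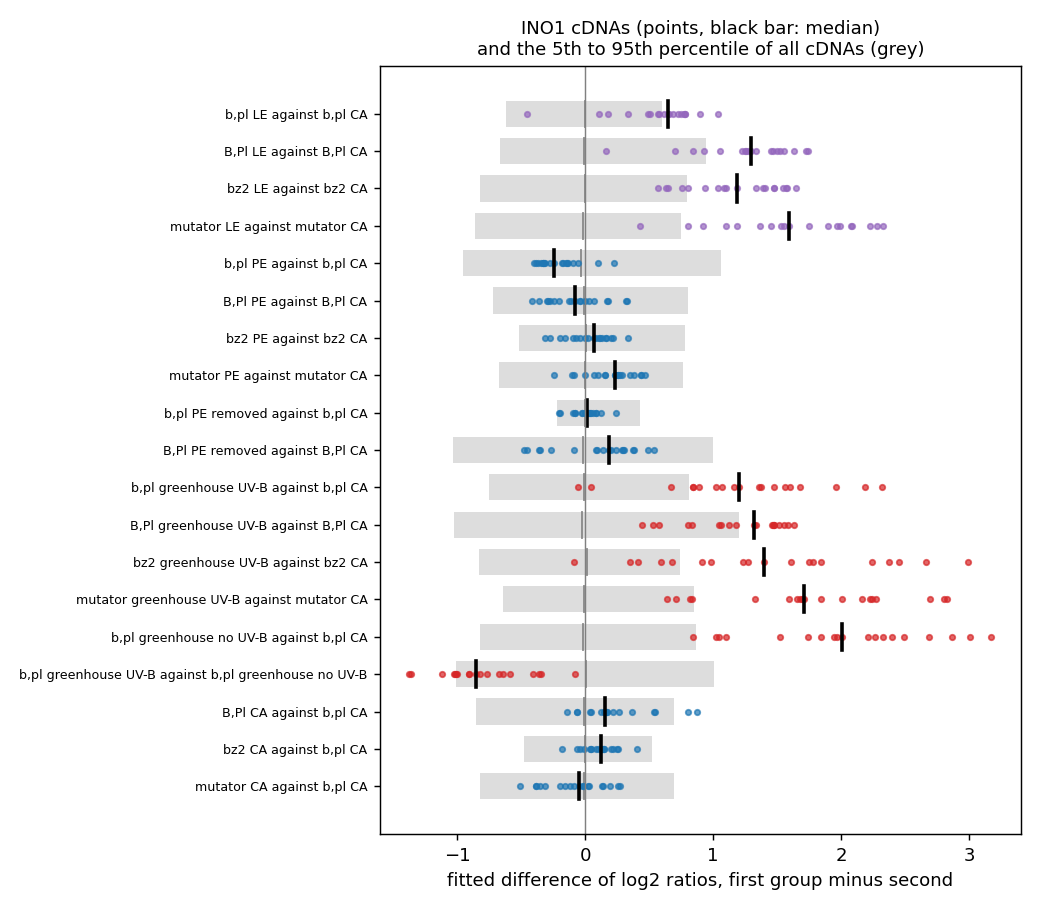
Fitted difference of log2 ratios (x axis) in each comparison (y axis) for the INO1 cDNAs (points; violet LE, red greenhouse, blue the rest), with a black bar at their median and a grey band from the 5th to the 95th percentile of all cDNAs. The INO1 medians of LE and greenhouse against CA, from 0.64 to 2.01, lie above the band, and those of PE, PE removed and CA lie inside it.

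Under the LE filter INO1 was positive in all 4 genotypes, as the choice of the gene implies. The arrays of b,pl had mean signed log2 ratios of 0.52 (SD 0.28 over the cDNAs) and 0.61 (SD 0.50), 1 in each dye. Those of bz2 had 0.99 and 1.34, also 1 in each dye, B,Pl had 0.93 and mutator 1.28. The b,pl arrays were the lowest pair and did not overlap with the other 4. As fitted differences from CA the medians were 0.64 in b,pl, 1.30 in B,Pl, 1.18 in bz2 and 1.59 in mutator. The gene means were 0.56 (SE 0.48), 1.26 (SE 0.70), 1.17 (SE 0.48) and 1.60 (SE 0.70) in the same order. The only negative cDNA among the 76 was cDNA 685 in b,pl, at −0.46. Averaged over the genotypes, the median was 1.26 and the gene mean 1.15 (SE 0.31), and 0.522% of all cDNAs lay above that median. Read as group over other channel whatever the dye, the medians became −0.097 in b,pl and −0.17 in bz2, the genotypes with both dyes.

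Under the PE filter INO1 showed no common direction. In b,pl the mean signed log2 ratio was −1.29 on the array with the group in Cy5, where all 19 cDNAs were negative, and 0.88 on that in Cy3, where all 19 were positive. In B,Pl the arrays had −0.02, −0.75 and 0.69, the last in Cy3, and the single arrays of bz2 and mutator had −0.30 and −0.13. Thus both Cy3 arrays were positive and the 5 Cy5 arrays were negative. The fitted medians against CA were −0.24 in b,pl, −0.08 in B,Pl, 0.07 in bz2 and 0.24 in mutator. Averaged over genotypes, the gene mean was −0.017 (SE 0.31).

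No INO1 cDNA was called for PE. In limma 0 of 19 passed the adjusted threshold in b,pl, B,Pl, bz2, mutator and their mean, where 0.0% of all cDNAs passed each time, and the lowest adjusted p in any of them was 0.57. At an unadjusted p under 0.05 there were also 0 of 19 each time, against 10.6% of all cDNAs in b,pl, 9.04% in B,Pl, 1.77% in bz2, 2.94% in mutator and 11.4% in the mean. The F test between genotypes called 0 of 19, against 0.0%, and 0 had an unadjusted p under 0.05, against 1.25%. The b,pl value rests on 2 arrays of opposite sign: the median was −1.02 without replicate 2 and 0.69 without replicate 1. With replicate 2 turned in sign it was −1.09, with 16 of 19 at an unadjusted p under 0.05, against 15.2% of all cDNAs. With replicate 1 turned, an alternative added after the data were seen, it was 1.09, with 15 of 19, against 14.6%. The residual SD of the gene mean was 0.547 and 0.582 with these arrays turned. For B,Pl PE the median was −0.47 with replicate 3 turned and 0.28 with the 4 conflicting arrays turned.

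A day after the PE plastic was taken off, the fitted INO1 differences from CA were smaller than their errors. In b,pl the arrays had mean signed log2 ratios of −0.39 in Cy3 and 0.39 in Cy5, where the dye label conflicts, and in B,Pl 0.25 in Cy3 and 0.43 in Cy5. The b,pl arrays mirror each other, and the B,Pl arrays have the same sign. Against CA the medians were 0.02 in b,pl and 0.19 in B,Pl, and the gene means 0.0021 (SE 0.48) and 0.10 (SE 0.64). In limma 0 of 19 cDNAs were called in either, against 0.0% of all cDNAs in both, and 0 had an unadjusted p under 0.05, against 1.02% in b,pl and 6.89% in B,Pl. Without replicate 1 the b,pl median was 0.82, without replicate 2 it was −0.85, and with replicate 1 turned in sign 0.42.

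Between genotypes under CA the INO1 differences from b,pl were small beside their errors. The B,Pl arrays had mean signed log2 ratios of −0.33 in Cy5, with 0 of 19 cDNAs positive, and 1.17 in Cy3, with 19 positive. Those of bz2 and mutator had −0.22 and −0.40. The fitted gene means were 0.24 (SE 0.42) for B,Pl, 0.10 (SE 0.70) for bz2 and −0.08 (SE 0.70) for mutator. In limma 0 of 19 were called in each, against 0.0% of all cDNAs in each, and 0 had an unadjusted p under 0.05, against 10.5%, 0.519% and 4.68%. The lowest adjusted p was 0.597, for cDNA 15358 in B,Pl at 0.87 (SE 0.68).

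The sign of INO1 followed the dye on CA and PE arrays. Before turning by dye, all 11 of these arrays had a negative ratio of INO1, from −1.29 to −0.02. The dye term of the model had a median of −0.33 over the INO1 cDNAs, from −0.50 for cDNA 4972 to −0.08 for cDNA 9208, and was negative for 19 of 19. Of all cDNAs, 1.17% had a dye term below that median. In the 8 dye swaps, the cDNAs with the same sign on both arrays numbered 19 for bz2 LE, 18 for b,pl LE, 17 for b,pl greenhouse UV-B and 14 for B,Pl PE removed. The share of all cDNAs with the same sign was 72.7%, 58.1%, 64.1% and 57.7% in these swaps. The INO1 count was 1 for B,Pl PE, against a share of 24.8% over all cDNAs, and 0 for B,Pl CA, b,pl PE and b,pl PE removed, against 50.0%, 45.8% and 44.2%. The dye and the labels of single arrays move with these values, and their part in the CA and PE values was not tested. For the 2 LE swaps and the b,pl UV-B swap, the mean of both dyes was 0.56, 1.17 and 1.22.

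**Figure D3:**
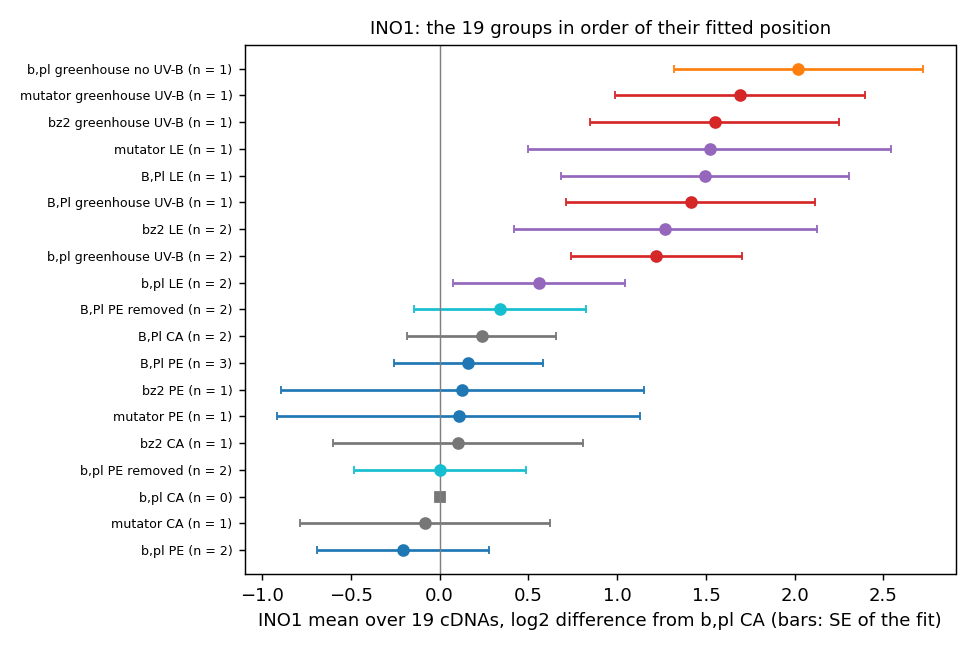
INO1 mean over its cDNAs in each group as the fitted log2 difference from b,pl CA (x axis, bars are the SE of the model), with the groups in order (y axis) and the number of arrays that carry the group as first-named. The greenhouse groups and LE of B,Pl, bz2 and mutator lie between 1.22 and 2.02, and b,pl LE at 0.56. With b,pl greenhouse UV-B replicate 2 turned, b,pl greenhouse UV-B would stand at −0.47.

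Placed in order by the fitted log2 difference of the gene mean from b,pl CA, b,pl in the greenhouse without UV-B was highest, at 2.02 (SE 0.70). Then came UV-B in mutator at 1.69 and in bz2 at 1.55, LE in mutator at 1.52 and in B,Pl at 1.49, UV-B in B,Pl at 1.41, LE in bz2 at 1.27 and UV-B in b,pl at 1.22. LE in b,pl followed at 0.56, and the remaining groups lay between −0.21 for b,pl PE and 0.34 for B,Pl PE removed. The widest step between neighbours, from b,pl UV-B to b,pl LE, was 0.66 (SE 0.68). No step between neighbours, this one included, was larger than its own SE. These steps thus resolve neither the order nor a split into a high and a low end. With b,pl UV-B replicate 2 turned, b,pl UV-B stood lowest of the 19 groups, at −0.47 (SE 0.70), and b,pl without UV-B stayed highest, at 1.82 (SE 1.01).

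The 19 cDNAs of INO1 varied together but not by the same amount. Over the 27 arrays, 17 of the 19 cDNAs correlated at over 0.9 with the mean of the others. These correlations and the slopes below were taken on the centred ratios before turning by dye, so a shared dye term enters them. Those with the lowest correlation were cDNA 685 at 0.678, cDNA 9208 at 0.739 and cDNA 2206 at 0.926. Between cDNAs the pairwise correlation ran from 0.578 to 0.993, with a median of 0.928 over 171 pairs. All of them share the same arrays and dyes. The 3 spots of a cDNA had a median SD of 0.034, while the cDNAs of an array had one of 0.318. The signed ratios of a cDNA over the arrays had one of 0.855.

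The slope of a cDNA on the gene mean ran from 0.295 for cDNA 9208 and 0.315 for cDNA 685 to 1.57 for cDNA 10816 and 1.61 for cDNA 15358, a ratio of 5.44. On the 6 greenhouse arrays cDNA 685 had a mean signed log2 ratio of 0.24, with 4 arrays positive, and cDNA 9208 one of 0.34, with 5 positive. At the other end cDNA 10816 had 2.25 and cDNA 15358 had 2.26, with 6 of 6 positive for both. On the LE arrays the cDNAs were closer together, from 0.21 for cDNA 685 to 1.30 for cDNA 15358. A fold change read from a single INO1 cDNA therefore depends on which cDNA is read, and cDNA 685 or 9208 gave the lowest value on each of the 12 LE and greenhouse arrays.

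**Figure D4:**
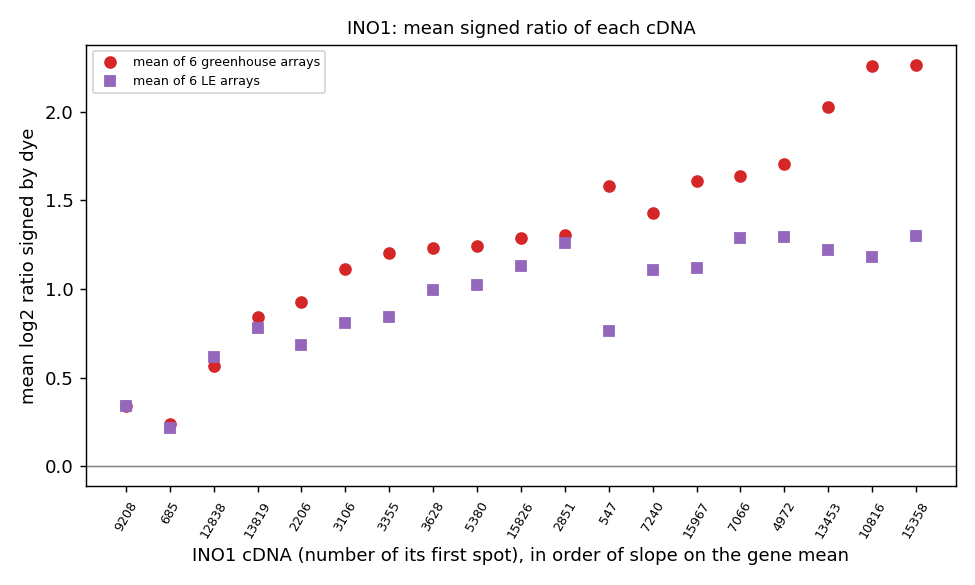
Mean signed log2 ratio (y axis) of each INO1 cDNA (x axis, in order of its slope on the gene mean) over the 6 greenhouse arrays (red circles) and over the 6 LE arrays (violet squares). The greenhouse means run from 0.24 for cDNA 685 to 2.26 for cDNA 15358, and the LE means from 0.21 to 1.30.

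Among the 69 annotated genes with at least 3 cDNAs, sam2 (LOC542733, 32 cDNAs), an S-adenosylmethionine synthetase that makes the methyl donor of the cell, was most like INO1. The uncentred correlation of the gene means over the 27 arrays, with the dye term taken out, was 0.874. The signed mean of sam2 had the sign of INO1 on 26 of 27 arrays, mutator PE being the exception, and ran from −0.74 to 0.97. On the 6 greenhouse arrays sam2 lay between 0.20 and 0.82, below INO1 on each. The b,pl array without UV-B, the highest for INO1 at 1.70, had only 0.20 for sam2. Likeness is a description here, since both genes were read on the same arrays and share dye and reference.

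Next to sam2 came LOC541886 at 0.84, listed as the water channel PIP1-3, then eno1 (LOC732811), an enolase of glycolysis, at 0.816. After them came LOC542159 at 0.77 and pep7 (LOC542479), a phosphoenolpyruvate carboxylase, at 0.699. LOC541886, eno1, LOC542159 and pep7 had the sign of INO1 on 23, 22, 21 and 21 of the arrays. Another enolase gene, eno2 (LOC542316, 4 cDNAs), stood at −0.391. Least like INO1 were the linker histone gene his1 (LOC542385) at −0.806 and the elongation factor 1-alpha genes elfa2 (LOC100037748) at −0.627 and LOC542581 at −0.626. Their signs were opposite to that of INO1 on 23, 21 and 21 arrays. Without centring of the arrays these 3 stood at −0.237, −0.252 and −0.244, and 3 other genes, LOC542021 at −0.322, LOC542379 at −0.316 and LOC541942 at −0.285, lay below them, so this end of the order holds only with centring.

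**Figure D5:**
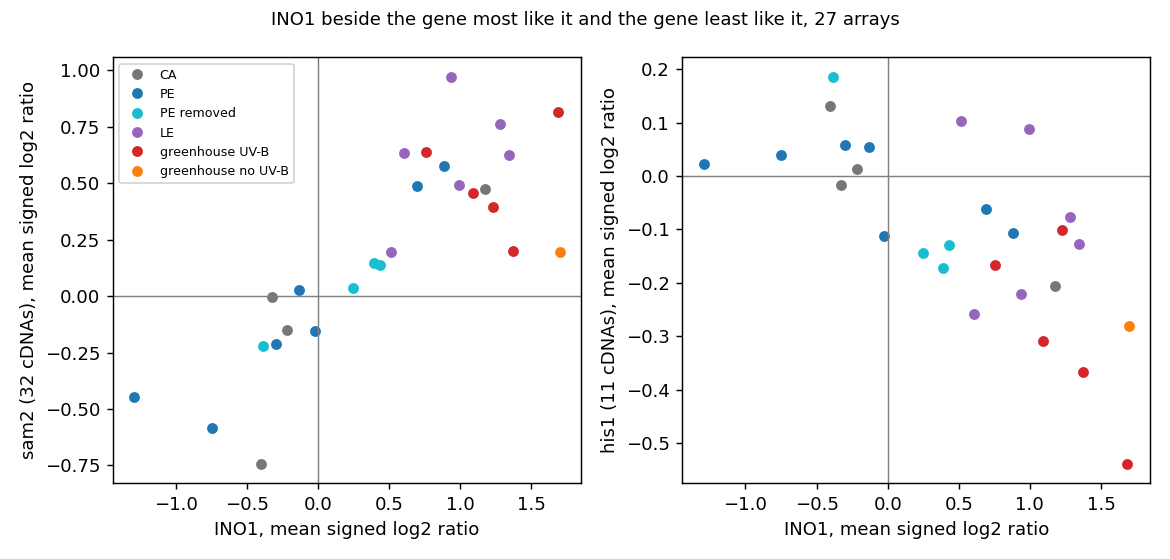
Mean signed log2 ratio of INO1 (x axis) against that of sam2 (left, y axis) and of his1 (right, y axis) on the 27 arrays, coloured by condition. Points of sam2 run from lower left to upper right with 26 of 27 in quadrants of equal sign, and those of his1 from upper left to lower right, with 23 of 27 in quadrants of opposite sign.

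Genes on either side of inositol synthesis were few on the array. Phosphatidylinositol synthase (PIS, LOC542548), which uses inositol to make the membrane lipid, was named after its values were seen. Its 2 cDNAs had fitted differences of −0.85 and −0.33 for b,pl UV-B against CA, and of 0.0094 and 0.12 in the mean of the 4 genotypes. Sucrose synthases sus1 and sh1, which supply hexose from sucrose, had a median of −0.17 over 16 cDNAs in that mean, with 2 positive. The S-adenosylmethionine list of sam2 and cgs1, the latter an enzyme of methionine synthesis, lies outside inositol synthesis. It had a median of 0.73 with 32 of 33 positive. Of its cDNAs, 32 belong to sam2, the gene found above to be most like INO1 on these same arrays. Its values are thus not independent of that likeness and stand mostly for 1 gene. In limma 0 cDNAs of these lists passed the adjusted threshold in the mean of UV-B in either direction, against 0.0187% of all cDNAs. At an unadjusted p under 0.05 there were 25 positive cDNAs in the S-adenosylmethionine list and 0 in the others, against 6.99% of all cDNAs in both directions. The 25 add no support beyond the likeness of sam2 to INO1.

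Markers of other cell states were measured beside these values. Lhcb5-2, a light-harvesting protein of green leaf cells, had 2 cDNAs with differences of 1.08 and 1.41 for b,pl without UV-B against CA, where INO1 was highest. With UV-B they had 0.37 and 0.46 in b,pl and 0.80 and 1.25 in B,Pl. In bz2 they had −1.61 and 0.30 and in mutator 0.05 and 0.08, where the INO1 medians were 1.40 and 1.71. The dividing-cell genes pcna2, MCM6 and his2b5 had a median of −0.13 over 8 cDNAs in b,pl without UV-B, with 2 positive. With UV-B it was 0.0042 in b,pl, 0.14 in B,Pl, −0.026 in bz2 and 0.12 in mutator. The fitted green-cell values given here thus rest on 2 cDNAs of 1 gene. The phosphoenolpyruvate carboxylase pep7, named above for its likeness to INO1, had a mean signed log2 ratio of 0.57 on the array without UV-B. With UV-B it had −0.03 and 0.01 in b,pl, 0.63 in B,Pl, 0.11 in bz2 and 0.33 in mutator, all against b,pl CA. The part of green cells in the INO1 values was not tested.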

How the data were processed

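The authors deposited log2 ratios of both channels, 1 per spot, read from the values as base 2. How they corrected the background and normalised is not given in the sources used here, nor is the numerator. Each array had 14715 to 16122 of 16200 spots with a value, and array medians ran from −0.691 to 0.367. The number of arrays limits the precision. INO1 lacked 3 of 1539 spot values.

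The 3 spots of a cDNA were averaged and arrays centred on their median. A model with 19 terms, 18 groups relative to b,pl CA and a dye term, was solved by least squares for all 5400 cDNAs, with 8 residual degrees of freedom plus 2.42 from squeezeVar in limma 3.58.1 (R 4.3.3). P-values were adjusted by Benjamini-Hochberg over all cDNAs, at a threshold of 0.05. The code was tested on simulated data. The spread of b,pl CA itself is left out, groups with 1 array were taken to vary like the rest, and p-values measure the spread between arrays, which may be technical. One INO1 cDNA value missing on B,Pl PE removed replicate 2 was dropped there, not imputed.

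The cDNAs, lists and comparisons were chosen with earlier results of these data known. Single cDNAs were named as the one with the smallest p or the ends of a range, the 3 with the lowest correlation with the rest, and other genes as the 5 most and 3 least like INO1 together with the pathway lists. Gene names come from a probe annotation, and 208 of its 213 genes were found in the gene table of the Zm-B73-REFERENCE-NAM-5.0 assembly. No coordinates or sequences were used. Replicate numbers follow the order of the samples and pair nothing. Alternatives changed the centring, scaling, spot average, dye term, direction of single arrays and the arrays used.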

Additional observations from a re-analysis of the deposited data

How the results depend on the processing

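Each value sets both channels of an array against each other, but arrays could not be paired by plant because the labels give no replicate numbers. Over 29 alternatives, 0 of 551 recomputed counts of INO1 cDNAs past the adjusted threshold in limma were above 0. Of 638 recomputed INO1 medians, 59 had the other sign and 24 moved by more than the residual SD of 0.683. Read as group over other channel, the medians against CA were −0.097 for b,pl LE, 0.52 for B,Pl LE, −0.17 for bz2 LE, 0.88 for mutator LE and 0.29 for their mean. In that reading they were −1.09 for b,pl PE, −0.82 for bz2 PE, −0.59 for mutator PE and −0.73 for the PE mean. They were also −0.43 for b,pl greenhouse UV-B, 1.28 for b,pl without UV-B, −1.75 for b,pl UV-B against no UV-B, −0.65 for bz2 CA and −0.74 for mutator CA against b,pl CA. Turning b,pl UV-B replicate 2 gave −0.43 against CA and −2.33 against no UV-B, and turning the 4 arrays with conflicting labels gave 0.66 for mutator CA. For b,pl PE, turning replicate 2 gave −1.09, turning replicate 1, added after seeing the data, gave 1.09, and leaving out the 3 arrays with the most missing values gave −1.04. Leaving out 1 array gave from −1.02 to 0.69 for b,pl PE and from −0.85 to 0.82 for b,pl PE removed. The mean of greenhouse UV-B against CA stayed between 0.96 and 1.57 and b,pl without UV-B between 1.28 and 2.14. Without centring, the median of all cDNAs for the UV-B mean was 0.16 and that of INO1 1.57, and for the PE mean they were −0.30 and −0.31. Over all cDNAs, the calls for b,pl PE against CA went from 0 to 645 without b,pl PE replicate 1, those for the PE mean from 0 to 211 and those of the PE F test from 0 to 204. For bz2 UV-B they went from 1 to 17 with scaled arrays, and for b,pl UV-B from 0 to 12 with the conflicting arrays turned. The causes were not tested. With 1 to 3 arrays a group and 8 residual degrees of freedom, the arrays limit what can be resolved.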
